A study of Drosophila melanogaster with 4 samples.

Results

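This section describes the MOF-enriched regions of Drosophila melanogaster that lie on chromosome 4, on 5 heterochromatic scaffolds (2LHet, 3LHet, 3RHet, XHet and YHet) and on the unplaced scaffold U. They were chosen by chromosome name alone from the authors' list for the replicate set, which gave 259 of its 6232 regions: 58 on chromosome 4, 85 on the heterochromatic scaffolds and 116 on U. The study profiled MOF by chromatin immunoprecipitation and sequencing (ChIP-seq) in embryos of 14 to 16 h from the wild-type laboratory strain Oregon-R. It has 2 ChIP libraries, made with an antibody labelled MOF Q4145, and 2 input libraries of genomic DNA, 1 for each ChIP. The labels name neither the sex of the embryos nor separate collections for the replicates, so the spread between replicates may be technical.

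MOF is a histone acetyltransferase that acetylates lysine 16 of histone H4, a mark of open chromatin. In flies it works in the MSL complex, which raises transcription of the male X chromosome, and in the NSL complex, which sits at promoters of housekeeping genes on all chromosomes. Chromosome 4 is a small autosome whose genes lie within chromatin rich in the heterochromatin protein HP1 and are bound by the chromosome-specific protein POF. The heterochromatic scaffolds come from the repeat-rich sequence around the centromeres and from Y, and U joins sequence that had not been placed on any chromosome.

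The regions, called clusters below, have coordinates and a score. The score was read as a log2 enrichment of ChIP over input, with 1 scaling constant per list, so levels of score are compared only within a list. A difference in score between the replicates includes the constants of both lists, and is read only beside the same difference on the arms. Where 3 scores or widths follow each other, they are those of the replicate set, replicate 1 and replicate 2, in this order. Coordinates are those of FlyBase release 5. Read counts were not analysed here, so the depth behind a score is unknown, and intervals given below cover the counting error of clusters only. Clusters are not replicates of a condition, and with 2 ChIP libraries no difference between chromosomes was tested. Chromosome arm 2R and its heterochromatin were not used as a comparison. Genes and sequences under the clusters were not analysed here because no genome or annotation of release 5 was used.

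MOF clusters were spread over chromosome 4 at close to the density of euchromatic arms. They were several times sparser per Mb of full sequence length on most heterochromatic scaffolds. On the 1.35 Mb of chromosome 4, replicate 1 listed 33 clusters, or 24.4 per Mb (exact 95% interval 16.8 to 34.3). Replicate 2 listed 38, or 28.1 per Mb (19.9 to 38.6). The mean was 26.3 ± 2.62 per Mb (SD, n = 2), against 31.5 ± 1.79 per Mb on arms 2L, 3L and 3R together. Relative to these arms, replicate 1 gave a density ratio of 0.745 (exact conditional 95% interval 0.512 to 1.05) and replicate 2 one of 0.930 (0.656 to 1.28). Both intervals include 1, so a lower density on chromosome 4 was not resolved at these counts. In the replicate-set list the ratio was 0.906 (0.687 to 1.17).

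Clusters covered 5.14% of chromosome 4 in replicate 1 and 5.86% in replicate 2, against 7.54% and 7.04% of the 3 arms. When the 3 arms were divided into 55 windows as long as chromosome 4, the windows held 6 to 69 clusters in replicate 1, with a median of 46. Of these windows, 8 had fewer clusters than chromosome 4. In replicate 2 the windows held 5 to 69 clusters with a median of 42, and 16 had fewer. Chromosome 4 thus lay in the lower part of the range of arm segments of its own length, and well inside that range.

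On the 5 heterochromatic scaffolds together (5.99 Mb), replicate 1 listed 34 clusters and replicate 2 listed 29. Their mean density was 5.26 ± 0.59 per Mb (SD, n = 2). Relative to the arms their density was 0.173 in replicate 1 (exact conditional 95% interval 0.1197 to 0.243) and 0.160 in replicate 2 (0.107 to 0.231). On U (10.0 Mb) they listed 32 and 18, with a mean density of 2.49 ± 0.985 per Mb (SD, n = 2). Relative to the arms U had a density of 0.0972 in replicate 1 (0.0663 to 0.138) and 0.0593 in replicate 2 (0.0351 to 0.0939). The intervals of these ratios lie far below 1 in both replicates, and cover counting error only. Densities use the full sequence length, with no allowance for gaps in the sequence or for repeats where reads may not be placed. The part of gaps and repeats in these low densities was not tested.

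**Figure D1:**
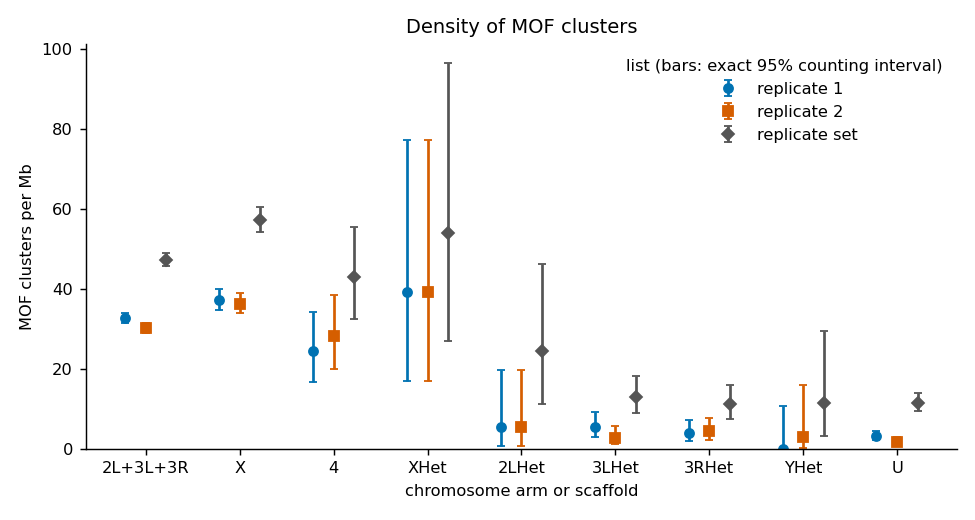
Clusters per Mb (vertical axis) on each arm or scaffold in the 2 replicate lists and the replicate-set list, with exact 95% counting intervals as bars. Chromosome 4 sits just under the arms and XHet (39.2 per Mb in each replicate) beside the arms with a wide interval. In the replicate lists the other scaffolds lie far below. In the replicate-set list 2LHet has 24.4 per Mb (11.2 to 46.3), against 47.3 on the arms.

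The replicate-set list held more clusters than either single list. Its density relative to its own arms was 0.300 (0.239 to 0.372) on the heterochromatic scaffolds and 0.244 (0.201 to 0.293) on U, both above the ratios of the single replicates. On chromosome 4 and XHet its ratios (0.906 and 1.14) were not above those of both replicates. On chromosome 4 it listed 42.9 clusters per Mb (exact 95% interval 32.6 to 55.5), on the heterochromatic scaffolds 14.2 (11.3 to 17.5) and on U 11.5 (9.54 to 13.8).

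Along chromosome 4 the clusters were uneven. The first cluster of the replicate set lay at 61405 to 63094, scored 0.22 and overlapped neither replicate. The longest stretch without a cluster ran for 112.7 kb, from 90608 to 203316. The chromosome was divided into 10 segments of 135.2 kb. The segment from 405558 to 540742 held the most clusters of the replicate set, 11, with 6 in replicate 1 and 8 in replicate 2. The segment from 135186 to 270371 held 2 clusters in the replicate set, with 0 in replicate 1 and 1 in replicate 2. The segment from 675929 to 811114 held 4 in the replicate set, none of which overlapped both replicates.

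The last segment held 8 clusters in each of the 3 lists. The 8 clusters of the replicate set in it lay within 64.1 kb, from 1259808 to 1323875, and covered 30.8% of that stretch. Of them, 6 overlapped both replicates, against 21 of the other 50 on the chromosome. Their median score was 0.87, against 0.46 for the other 50 in the replicate set. In replicate 1 the medians were 1.00 for the clusters of this stretch and 0.62 for the rest, and in replicate 2 they were 1.25 and 0.76. The stretch was singled out after its values were seen, and it ends 28.0 kb before the end of the chromosome 4 sequence.

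**Figure D2:**
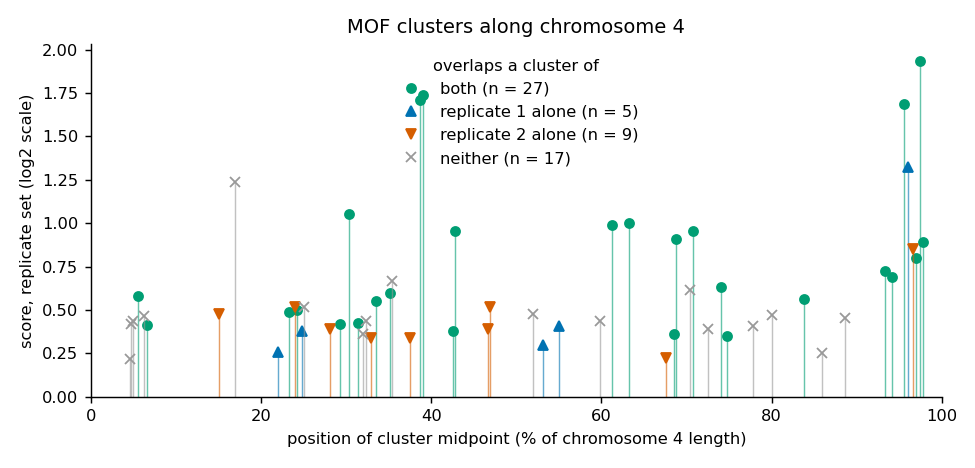
Score of each of the 58 replicate-set clusters of chromosome 4 (vertical axis, log2 scale) against its position as a percentage of the chromosome's length, with symbols for overlap with the replicate lists. The 4 highest clusters that recur in both replicates form a pair near 39.0% and another pair close to the right end.

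The highest-scoring cluster of chromosome 4 lay in that last stretch, at 1315424 to 1317737. It spanned 2314 bp and scored 1.94, 1.98 and 2.00. Another high cluster of that stretch, 1290075 to 1292318, scored 1.69, 1.69 and 1.78. Between them, the cluster at 1296310 to 1298372 scored 1.32 in the combined list and 1.57 in replicate 1 and had no counterpart in replicate 2. Its neighbour at 1304515 to 1306304 scored 0.85 in the combined list and 1.65 in replicate 2 and had none in replicate 1. These neighbours, each listed by a different replicate alone, were chosen after their values were seen. The last cluster of the chromosome, 1321354 to 1323875, scored 0.89, 0.86 and 0.94.

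The widest enrichment on chromosome 4 was formed by a pair of clusters separated by 320 bp. The cluster at 524721 to 530201 was the widest, with widths of 5481, 5391 and 5463 bp and scores of 1.74, 1.56 and 1.93. The adjoining cluster at 521220 to 524400 spanned 3181, 3103 and 2214 bp, with scores of 1.71, 1.66 and 2.03. With the clusters that start at 1290075 and 1315424 they made up the 4 highest recurring clusters, which scored at least 1.69, and the next scored 1.05.

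The other 3 of the 5 widest clusters were weaker. The cluster at 1259808 to 1264377 (4570 bp) had a replicate-set score of 0.72 and was divided into 2 clusters in each replicate. That at 954279 to 958331 (4053 bp) scored 0.96 and was 1 cluster in replicate 1 and 2 in replicate 2. That at 854046 to 857244 (3199 bp) scored 1.00, 0.93 and 1.16 and kept nearly its whole width, with 2975 and 3206 bp in the replicates. Clusters of at least 3 kb numbered 6 of 58 on chromosome 4, or 10.3%, against 13.9% on the arms in the replicate set. In the replicate lists they numbered 2 of 33 (6.06%) and 2 of 38 (5.26%), against 14.2% and 14.8% on the arms. The difference was not tested.

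The rest of the 10 highest recurring clusters lay between 30.3% and 70.7% of the chromosome's length. The cluster at 408376 to 410661 scored 1.05, 0.97 and 1.19. That at 827356 to 829642 scored 0.99, 1.13 and 0.88, the one of the 10 with a lower score in replicate 2 than in replicate 1. Those at 576890 to 579398 and 927877 to 930728 scored 0.95, 0.81 and 1.41, and 0.91, 0.74 and 1.41. The 10 spanned 1.88-fold to 3.83-fold enrichment in the authors' scaling.

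Typical clusters of chromosome 4 resembled those of the arms in score and width. The median score in the replicate set was 0.48 on chromosome 4 and 0.49 on the arms. In replicate 1 the medians were 0.67 and 0.71, and in replicate 2 they were 0.84 and 0.89. The median widths were 1990.5, 2009 and 2031.5 bp on chromosome 4 and 2039, 2088.5 and 2102 bp on the arms. In the highest score band of the replicate-set list, which holds 25% of all its clusters, lay 9 of the 58 clusters of chromosome 4 (15.5%, exact 95% interval 7.35 to 27.4%), against 24.4% of those on the arms. In their own lists 6 of 33 clusters of replicate 1 (18.2%) and 8 of 38 of replicate 2 (21.1%) did so, against 23.5% and 24.6% on the arms. The interval of the replicate set includes the share of the arms, so a difference was not resolved. The highest scores on chromosome 4 were 1.94, 1.98 and 2.03, and in the replicate set 4.04% of all clusters scored at least 2.

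Spacing on chromosome 4 was also near that of the arms. The median gaps between neighbours were 13.0, 16.8 and 13.4 kb on chromosome 4 and 10.0, 14.3 and 17.0 kb on the arms, so the order differed between lists. Neighbours within 5 kb made up 31.6% of the gaps on chromosome 4 and 32.5% on the arms in the replicate set.

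In the replicate-set list, clusters of chromosome 4 recurred in both replicates about as often as those of the whole list. Of the 58 replicate-set clusters on chromosome 4, 27 (46.6%, exact 95% interval 33.3 to 60.1%) overlapped both replicates by 1 base or more, against 53.5% of all clusters of the list and 55.6% on the arms. Another 5 overlapped replicate 1 alone and 9 replicate 2 alone. The remaining 17 (29.3%) overlapped neither, against 27.3% over the whole list. Compared directly, 28 of the 33 clusters of replicate 1 (84.8%) overlapped replicate 2, where 81.2% of all clusters did. In the other direction 28 of 38 (73.7%, 56.9 to 86.6%) overlapped replicate 1, against 86.7% of all clusters, a share just above that interval.

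Higher scores went with recurrence on chromosome 4. The replicate set was made from the same libraries as the replicate lists, so part of such a link is built in. Shares by score, here and on the other scaffolds, therefore describe the lists only. The replicate-set list was divided into 4 score bands of 25% each. In the 2 lower bands, 3 of 12 and 5 of 22 clusters recurred in both replicates, and in the 2 upper bands 12 of 15 and 7 of 9. On the arms the shares by band were 9.69%, 34.9%, 92.3% and 96.7%. Recurring clusters of chromosome 4 had a median score of 0.69 and a median width of 2287 bp, and those in neither replicate 0.44 and 1296 bp. On the arms the medians were 0.86 and 2272 bp for recurring clusters, and 0.38 and 1293 bp for those in neither. The strongest of chromosome 4 that overlapped neither replicate was 228022 to 229317, a cluster of 1296 bp with a score of 1.24.

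For 25 recurring clusters of chromosome 4, exactly 1 cluster in each replicate corresponded to the member. Their midpoints differed between replicates by a median of 46 bp, and by at most 100 bp for 19 of the 25. Across these clusters the scores of the replicates correlated with a Pearson r of 0.895 and rho (Spearman) of 0.895, a description only, since the clusters share their libraries. Replicate 2 gave the higher score for 21 of 25, with a median difference of 0.08 (replicate 2 minus replicate 1). On the arms the median difference was 0.16 over 1935 such clusters.

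In the replicate-set list the heterochromatic scaffolds together and U had smaller recurring shares. Of the 85 clusters on the heterochromatic scaffolds, 20 (23.5%, exact 95% interval 15.0 to 34.0%) overlapped both replicates, 12 replicate 1 alone, 8 replicate 2 alone and 45 neither. XHet alone had 7 of 11, and without it the share was 17.6%. U had 14 of 116 (12.1%, 6.76 to 19.4%) in both, 15 in replicate 1 alone, 3 in replicate 2 alone and 84 in neither. Both intervals lie below the 53.5% of the whole list. Within the replicate lists themselves, 20 of 34 clusters (58.8%) of replicate 1 and 20 of 29 (68.97%) of replicate 2 on the heterochromatic scaffolds overlapped the other replicate. On U the direct overlap was 15 of 32 (46.9%) and 14 of 18 (77.8%). Among clusters of replicate 2, the direct overlap on U (exact 95% interval 52.4 to 93.6%) and on the heterochromatic scaffolds was thus close to the 73.7% of chromosome 4. Among clusters of replicate 1 both shares were below the 84.8% of chromosome 4. Over the whole lists the shares were 81.2% for replicate 1 and 86.7% for replicate 2.

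**Figure D3:**
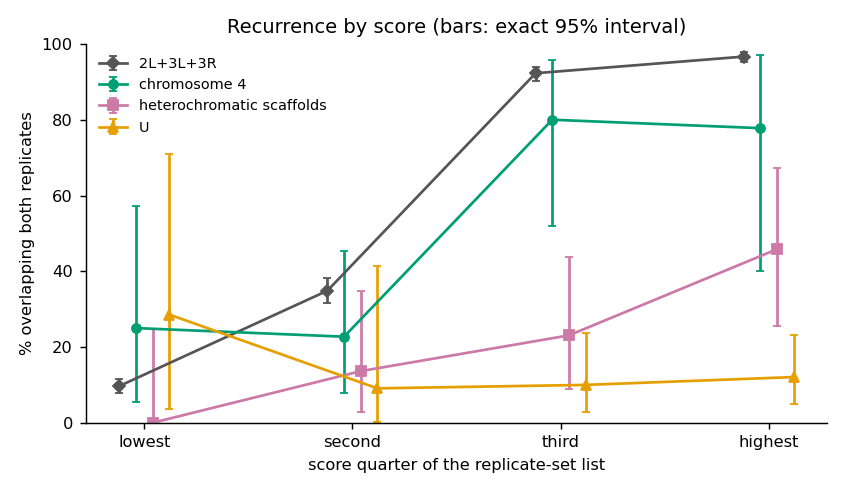
Percentage of replicate-set clusters that overlap both replicates (vertical axis) in each of 4 score bands of the list, for arms 2L, 3L and 3R, chromosome 4, the heterochromatic scaffolds and U, with exact 95% intervals. The arms rise from 9.69% to 96.7%, while U stays between 9.09% and 28.6%.

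XHet, which holds 0.204 Mb of X heterochromatin, stood apart from the other scaffolds. It had 8 clusters in each replicate, or 39.2 per Mb (exact 95% interval 16.9 to 77.2), and 11 in the replicate set, of which 7 overlapped both replicates. The density was 1.20 times that of the arms in replicate 1 (0.516 to 2.36) and 1.30 times in replicate 2 (0.559 to 2.56). With 8 clusters neither a likeness to the arms nor a difference from them can be shown. The other 4 scaffolds together had 4.06 per Mb.

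The 7 recurring clusters of XHet formed a ladder of nearly equal steps. In the replicate set they began at 89600, 95565, 101404, 107288, 113131, 119030 and 124915. Their widths were 2130 to 2250 bp and their scores 0.85 to 1.13, with the highest at 113131 to 115332 (1.13, 1.16 and 1.18). In replicate 1 the 7 were 1994 to 2239 bp wide and scored 0.78 to 1.35. In replicate 2 they were 1362 to 2053 bp wide and scored 0.68 to 1.18, so widths varied more there. In replicate 1 the distance between neighbouring midpoints was 5893 ± 60.1 bp (SD of the 6 steps), and in replicate 2 it was 5879 ± 126 bp. In the replicate set the ladder had 1 more rung on its left, 83801 to 85732, which scored 0.38 and overlapped neither replicate. With it the steps were 5896 ± 38.8 bp, from 5849.5 to 5949 bp.

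No other such run was present in the lists. A search of every chromosome for at least 5 consecutive steps with a coefficient of variation of at most 5% tried 6168, 4101 and 3853 positions in the replicate set and replicates 1 and 2. It found 1 run in each list, the one on XHet. The criterion was set after the ladder had been seen. The ladder spanned 37.5 kb in replicate 1 and 37.2 kb in replicate 2. The 3 other XHet clusters of the replicate set, at 61290 to 63123, 75561 to 77155 and 133972 to 135667, scored 0.45, 0.36 and 0.41, and none overlapped both replicates. The counterpart of the first in replicate 2 scored 0.73, above the lowest ladder cluster of that list (0.68).

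**Figure D4:**
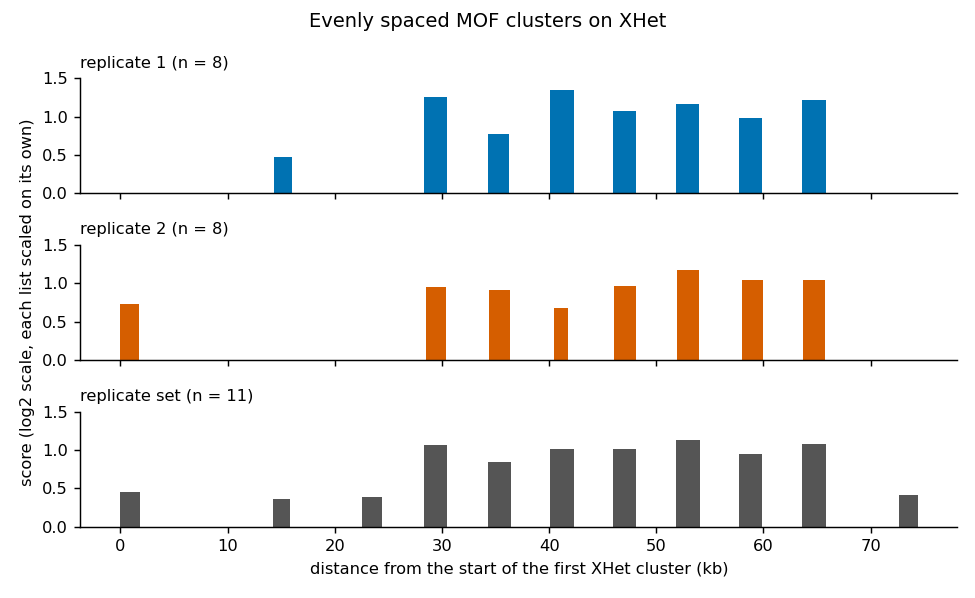
Clusters of XHet in replicate 1 (8), replicate 2 (8) and the replicate set (11), drawn as bars at their extent in kb from the start of the first cluster and with their score (log2 scale, each list scaled on its own) as height. The 7 bars of the ladder repeat at mean steps of 5893 bp in replicate 1 and 5879 bp in replicate 2. In replicate 2 the bar outside the ladder (0.73) is taller than the lowest bar of the ladder (0.68).

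3RHet held the strongest recurring cluster of all the regions described here. It lay at 2106100 to 2108776 (2677 bp), with scores of 2.96, 3.12 and 3.01, the first being 7.77-fold in the authors' scaling. It ranked at percentile 99.6 of the whole replicate-set list. 3RHet also held the only heterochromatic cluster wider than 3 kb, at 2377256 to 2381329 (4074 bp), with scores of 1.11, 1.23 and 1.03. Of the 28 clusters on 3RHet, 17 lay in the last of 3 equal parts of the scaffold, with 6 of its 7 recurring clusters. The highest score on 3RHet, 3.46 at 1034260 to 1035267, belonged to a cluster of 1008 bp that overlapped neither replicate.

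On 3LHet the replicates differed in number. Replicate 1 listed 14 clusters there and replicate 2 listed 7, and 4 of its 33 replicate-set clusters overlapped both. The strongest, at 1238090 to 1240958, scored 1.85, 2.96 and 1.77. From replicate 1 to replicate 2 its score fell by 1.19, the largest such fall among all 3237 clusters of the list that matched exactly 1 cluster in each replicate. On the arms the median change in the same direction was a rise of 0.16.

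2LHet and YHet had few clusters. In each replicate 2LHet had 2 clusters, and the same 2 of its 9 replicate-set clusters recurred, the higher at 285447 to 287629 with scores of 0.87, 0.65 and 1.30. The highest score on 2LHet, 0.93 at 29333 to 30400, belonged to a cluster of 1068 bp found in neither replicate. YHet (0.347 Mb) had 0 clusters in replicate 1, for which the exact interval reaches 10.6 per Mb, and 1 in replicate 2. The 4 replicate-set clusters on YHet were 1066 to 1132 bp wide and scored 0.86 to 1.04, and the highest, 108216 to 109347, matched the single cluster of replicate 2 (1.78).

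On the arms most recurring clusters scored higher in replicate 2, and on the heterochromatic scaffolds the direction was mixed. On these scaffolds replicate 2 gave the higher score for 9 of 20 clusters, with a median difference of -0.11 (replicate 2 minus replicate 1), against 77.5% of clusters and a median of 0.16 on the arms. On XHet it was higher for 3 of 7, with a median of -0.10, and on 3LHet for 1 of 4, with a median of -0.21. On 3RHet it was higher for 4 of 7, with a median of 0.069, and on 2LHet for 1 of 2, with a median of 0.25. On U it was higher for 7 of 13, with a median of 0.13. The difference from the arms was not tested. Depth of the libraries over these scaffolds was not analysed here, and its part in these values was not tested.

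On U the recurring share did not rise with score as it did on the arms: from the lowest score band to the highest, 2 of 7, 1 of 11, 4 of 40 and 7 of 58 clusters recurred. U had the highest score of the replicate-set list, 3.99 (15.9-fold) at 7619239 to 7620399, in a cluster of 1161 bp that overlapped neither replicate. Of the 116 clusters on U, 58 (50.0%) fell in the highest score band of the list, against 24.4% on the arms. At a score of at least 2 there were 22 clusters on U, or 19.0% of them, against 3.58% on the arms and 4.04% in the whole list. Of these 22, 1 recurred (4.55%, exact 95% interval 0.115 to 22.8%), against 120 of 128 (93.8%) on the arms and 86.5% of all clusters with such a score. The threshold of 2 was chosen after the values were seen.

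The high-scoring clusters of U were narrow and often carried identical scores. Of the 22 clusters, 11 had the minimum width of the list, 1001 bp, and 3 were at least as wide as the narrowest cluster of either replicate list, 1301 bp. Among all 252 clusters of the list with such a score, 19 had the minimum width and 222 were at least 1301 bp wide. On the arms these were 5 and 121 of 128. A score shared with another cluster of the list to all deposited digits was found for 17 of the 22. It was found for 28 of the 252 in the whole list and 6 of the 128 on the arms. The score 3.46 was carried by 4 clusters, 3 on U (4278663 to 4279667, 5652599 to 5653600 and 7698468 to 7699480) and the one on 3RHet. They were 1002 to 1013 bp wide, and all 4 were in neither replicate. The score 3.29 was carried by 3 clusters of U, including 441447 to 442447, each of 1001 bp and in neither replicate. Shared scores were found for 50.9% of all U clusters, 25.9% on chromosome 4, 25.9% on the heterochromatic scaffolds and 19.3% on the arms.

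Narrow clusters were commoner on U and on the heterochromatic scaffolds than on chromosome 4 and the arms. Clusters narrower than 1301 bp made up 54.3% of U, 40.0% of the heterochromatic scaffolds, 19.0% of chromosome 4 and 14.1% of the arms. None of them overlapped both replicates, as was true of all 960 such clusters of the list. Among clusters of at least 1301 bp, the recurring share was 26.4% on U (exact 95% interval 15.3 to 40.3%) and 39.2% on the heterochromatic scaffolds (25.8 to 53.9%). It was 57.4% on chromosome 4 (42.2 to 71.7%) and 64.7% on the arms (62.9 to 66.4%). Over the whole list it was 63.3%. The order of the 4 parts was the same with and without the narrow clusters.

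**Figure D5:**
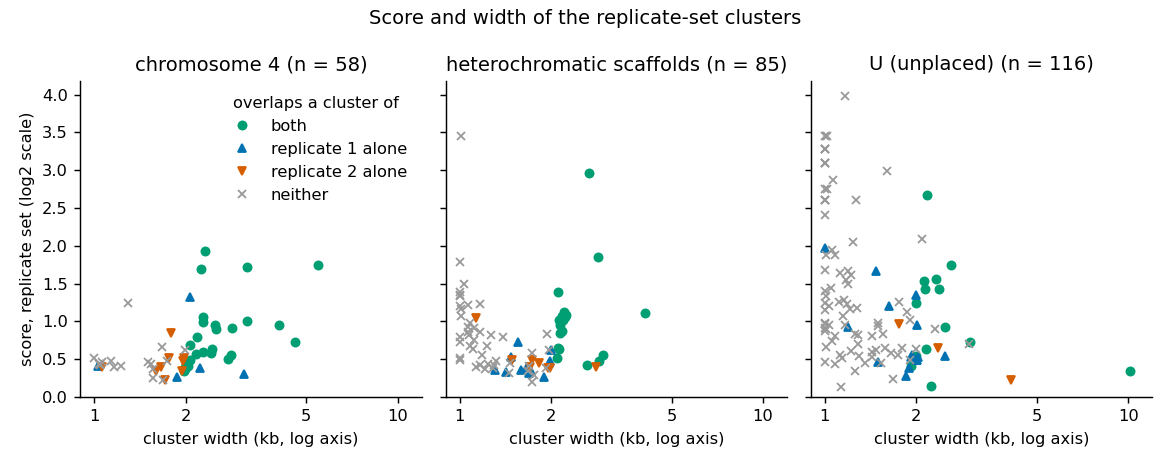
Score (log2 scale) against width (kb, log axis) of the replicate-set clusters on chromosome 4 (58), the heterochromatic scaffolds (85) and U (116), with symbols for overlap with the replicates. Of the 22 clusters of U that score at least 2, 3 are at least 1301 bp wide and 21 overlap neither replicate, while the 1 that recurs is 2178 bp wide.

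Clusters of U that did recur had a median width of 2207 bp, against 2272 bp for recurring clusters of the arms. Recurrence itself selects on width, as the narrowest recurring cluster of the whole list was 1693 bp wide. This likeness therefore says little about U. The highest recurring cluster of U, at 7424576 to 7426753, scored 2.67, 2.74 and 2.55. It was followed by 5629689 to 5632287 (1.74, 1.69 and 1.83) and 6903585 to 6905906 (1.56, 1.33 and 1.92). The next, 6311634 to 6313755 and 7456959 to 7459343, scored 1.53 and 1.43 in the replicate set. These 5 were 2122 to 2599 bp wide, and none of their scores was at a level that the narrow clusters shared.

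U also held a broad and weak cluster, the widest of the 259 described here. This cluster of 10153 bp at 5287968 to 5298120 had a replicate-set score of 0.34. In replicate 2 it was 1 cluster of 9943 bp (0.41), and in replicate 1 it was 2 clusters of 2158 and 1713 bp (0.22 and 0.15). The adjoining cluster of 4098 bp at 5298183 to 5302280 scored 0.23 and overlapped replicate 2 alone (0.24). The cluster at 9150169 to 9152404 scored 0.14, 0.12 and 0.11. It had the lowest score of all clusters in each replicate list, and it recurred with nearly the same extent, 2072 and 2022 bp. The choice of these weak clusters was made with their values known.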

How the data were processed

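Lists of enriched regions were deposited by the authors: 1 for each of 2 ChIP replicates and 1 for the replicate set. Reads were aligned with Bowtie 0.12.7, per the submitters' processing notes, and coordinates are on FlyBase release 5, per the file headers. The caller, its threshold, the way the replicates were combined and the handling of reads with several alignments: each is not given in the sources used here. Scores were deposited by the authors with no stated scale and were read as log2 values: after subtraction of the commonest score, powers of 2 gave ratios of whole numbers (denominator up to 1000, relative tolerance 1e-10) for 98.4% to 99.8% of clusters per list, and powers of e for at most 0.794%. Starts, ends and header lengths are other deposited values.

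Members were selected by chromosome name. Overlap required 1 shared base. Density intervals are exact Poisson, shares exact Clopper-Pearson, ratios exact conditional binomial, all at 95%, for counting error only. No test was run. The members, lists and comparisons were chosen with earlier results of these data known. Named clusters were the 10 highest recurring, 5 widest, first, last and strongest non-recurring on chromosome 4, the highest and highest recurring on each scaffold and 5 of each on U. Functions were tested on simulated lists. The input libraries were not analysed here. Python 3.11.15, numpy 2.4.6, pandas 2.3.3, scipy 1.17.1 and matplotlib 3.10.9 were used.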

Additional observations from a re-analysis of the deposited data

How the results depend on the processing

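Of 70 alternative values for 14 results, 31 stayed within the spread between replicates or the exact interval and 39 moved. For the densities, the covered share and the density ratio, the value of a single replicate stays within that spread by construction. Those values are among the 31 and say nothing about stability. Restricting each list to scores at or above its median gave 11.1 clusters per Mb on chromosome 4, 2.42 on the heterochromatic scaffolds and a covered share of 2.68% on chromosome 4, since such a cut removes clusters by construction. The same cut gave recurring shares of 79.2% on chromosome 4 and 34.0% on the heterochromatic scaffolds. The replicate-set list gave 42.9 clusters per Mb on chromosome 4, 14.2 on the heterochromatic scaffolds and 11.5 on U, and covered 8.86% of chromosome 4. With clusters at least as wide as the narrowest replicate cluster, recurrence was 39.2% on the heterochromatic scaffolds and 26.4% on U. The density ratio of chromosome 4 to the arms ranged from 0.723 to 0.930 over the alternatives. They reuse the same libraries, so values below 1 in all of them do not resolve a lower density.

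Differences in median score from the arms depended on the list and the filter, on U too. In the replicate set they were -0.0050 on chromosome 4, 0.15 on the heterochromatic scaffolds and 0.48 on U. Among clusters overlapping both replicates they were -0.17, 0.14 and 0.22. With X added to the arms they were -0.032 on chromosome 4 and 0.12 on the heterochromatic scaffolds. With the narrow clusters left out, chosen after the data were seen, they were -0.073 on the heterochromatic scaffolds, a change of sign, and 0.086 on U. In the lists of the single replicates they were -0.045 to -0.044 on chromosome 4 and 0.13 to 0.27 on U. On the heterochromatic scaffolds they were -0.024 to -0.022, also a change of sign. These values come from a change of list, as no replicate was removed from the replicate set. Differences in median width were -48.5 bp, -486 bp and -777 bp in the same order, and 15 bp (a change of sign), -81 bp and -65 bp among clusters in both replicates. In the lists of the single replicates they ranged from -79.5 to -70.5 bp, -133 to -74.5 bp and -218 to -170.5 bp. Without XHet, also chosen after the data were seen, the heterochromatic scaffolds had 4.06 clusters per Mb, a score difference of 0.14 and a width difference of -631.5 bp. Counting overlap with a single replicate gave recurring shares of 55.2% to 62.1% on chromosome 4, 32.9% to 37.6% on the heterochromatic scaffolds and 14.7% to 25% on U. Where the construction does not show it, the cause was not tested. No paired analysis was possible because the results come from no test and only the ChIP libraries have lists. The depth of the libraries is unknown, which limits what a score on a narrow cluster can show.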

Other observations

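A few clusters of the single replicates were missing from the list for the replicate set. On chromosome 4 there were none among the 33 clusters of replicate 1 and the 38 of replicate 2. Over the whole lists 44 of 4158 and 41 of 3911 were missing, so at these counts chromosome 4 was not set apart. On the heterochromatic scaffolds and U there were 6: at 2160862 to 2162184 on 3LHet (score 2.71), 702581 to 703889 on 3RHet (0.71), 6165598 to 6167246 on U (2.71) and 6554315 to 6555738 on U (0.82) in replicate 1, and at 1334134 to 1335547 on 3LHet (0.77) and 7795137 to 7796536 on U (2.84) in replicate 2. None of the 6 overlapped the other replicate. On the heterochromatic scaffolds they made up 2 of 34 clusters of replicate 1 and 1 of 29 of replicate 2. On U they made up 2 of 32 and 1 of 18. Of the 6, 3 scored above 2 in their own list.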
